A study of Mus musculus with 2 samples.

Results

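The Hox genes are the homeobox genes of 4 clusters, HoxA, HoxB, HoxC and HoxD, and were taken as every protein-coding gene of GENCODE M21 on mm10 named Hoxa, Hoxb, Hoxc or Hoxd plus a number. There were 39 of them among 21938 protein-coding genes on chromosomes 1 to 19, X and Y. The clusters lie on chromosome 6 (HoxA, 11 genes), chromosome 11 (HoxB, 10 genes), chromosome 15 (HoxC, 9 genes) and chromosome 2 (HoxD, 9 genes). The study mapped H1t, a linker histone made in male germ cells, by chromatin immunoprecipitation and sequencing. Its material was germ cells from testes of ICR mice aged 6 weeks, given no treatment in the labels, an isolate that mixes germ cell stages. Of 2 libraries, 1 was precipitated with a rabbit polyclonal antibody raised in-house and 1 was an input taken without antibody. The deposited peaks belong to the H1t library; the input library was not used here. A single library gives no replicate and no test: counts of Hox genes stand beside the same counts over all genes, and an excess over them was not tested. Expression was not measured, so the labelled cell type could not be set against its marker genes.

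Linker histones bind where DNA enters and leaves the nucleosome, and H1t replaces much of the somatic H1 from meiotic prophase on. Hox proteins are transcription factors that bind DNA through the homeodomain and set position along the body axis of the embryo. Genes at the same place in different clusters are paralogs with the same number; they are transcribed in 1 direction, low numbers act towards the head and high numbers towards the tail and in limb and genital buds, and Polycomb proteins keep the clusters repressed where they are not used.

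The coding sequence of all 39 genes lies in 2 exons, and the later one holds the homeobox, the 180 bp that encode the 60 residues of the homeodomain. Peaks lay more over the former exon than over the homeobox, so the first 180 coding bases of a pair of paralogs of group 9, 1 inside a peak and 1 outside, are shown 5′ to 3′ on the coding strand with CG dinucleotides in capitals. They come from GENCODE M21 transcripts on mm10 and lie at chr6:52225925-52226104 (minus strand) for Hoxa9 and chr2:74698056-74698235 (plus strand) for Hoxd9. The bases of Hoxa9 were wholly inside an H1t peak, and those of Hoxd9 had 0 bases in a peak.
Hoxa9: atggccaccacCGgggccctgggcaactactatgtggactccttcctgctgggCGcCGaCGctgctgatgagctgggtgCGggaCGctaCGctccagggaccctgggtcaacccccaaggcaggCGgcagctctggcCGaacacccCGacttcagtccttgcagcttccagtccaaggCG
Hoxd9: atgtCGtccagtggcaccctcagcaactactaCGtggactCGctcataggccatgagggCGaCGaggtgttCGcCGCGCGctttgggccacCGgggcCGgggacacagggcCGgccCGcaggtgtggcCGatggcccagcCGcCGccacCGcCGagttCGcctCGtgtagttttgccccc
The stretch inside the peak had 11 CG and 66.7% GC, and the stretch outside had 20 CG and 69.4% GC. Base by base without gaps they were identical at 35.6% of positions. In this pair the exon outside a peak was thus the one with more CG.

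Promoters show the same mixture. The 250 bases upstream of a start site are shown from RefSeq (GRCm38.p6, the assembly of mm10), for HoxD genes with and without a peak there and for genes with 2 start sites. Upstream of Hoxd1 (chr2:74762730-74762979, plus strand) 194 of the 250 bases lay in a peak, and upstream of Hoxd10 (chr2:74691641-74691890, plus) all 250 did.
Hoxd1: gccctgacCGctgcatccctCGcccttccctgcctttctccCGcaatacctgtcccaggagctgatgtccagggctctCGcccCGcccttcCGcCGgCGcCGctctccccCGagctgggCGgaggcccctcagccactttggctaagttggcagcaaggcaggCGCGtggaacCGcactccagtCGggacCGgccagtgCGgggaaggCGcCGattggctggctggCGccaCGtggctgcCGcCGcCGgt
Hoxd10: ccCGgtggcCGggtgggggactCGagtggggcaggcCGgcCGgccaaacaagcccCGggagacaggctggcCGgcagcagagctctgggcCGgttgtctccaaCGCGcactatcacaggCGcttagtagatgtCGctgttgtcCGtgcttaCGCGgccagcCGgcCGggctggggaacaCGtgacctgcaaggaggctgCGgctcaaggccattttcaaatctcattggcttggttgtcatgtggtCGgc
These hold 24 and 20 CG. Hoxd11 has 2 starts. Before the downstream one (chr2:74682073-74682322, plus) 201 bases lay in a peak and 20 CG were found, and before the outer one (chr2:74679308-74679557, plus) 0 bases lay in a peak and 2 CG were found. The outer start was not free of peaks, as a peak scoring 75.49 had its midpoint 466 bp downstream of it.
Hoxd11, downstream start: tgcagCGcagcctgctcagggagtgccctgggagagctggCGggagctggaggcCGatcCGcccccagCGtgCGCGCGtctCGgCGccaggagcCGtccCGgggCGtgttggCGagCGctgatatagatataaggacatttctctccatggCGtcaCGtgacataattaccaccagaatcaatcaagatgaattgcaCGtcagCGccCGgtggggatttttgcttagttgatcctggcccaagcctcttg
Hoxd11, outer start: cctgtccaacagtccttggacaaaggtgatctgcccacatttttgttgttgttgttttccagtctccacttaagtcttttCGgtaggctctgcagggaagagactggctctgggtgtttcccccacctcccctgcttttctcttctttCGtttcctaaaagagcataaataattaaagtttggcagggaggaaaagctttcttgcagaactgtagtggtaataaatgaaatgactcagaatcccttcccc
Upstream of the 2 starts of Hoxa10 the values also differed. The downstream start (chr6:52234940-52235189, minus) had 96 upstream bases in a peak and 20 CG, against 0 and 7 at the outer start (chr6:52240855-52241104, minus). Unlike that of Hoxd11, the outer start of Hoxa10 had no peak midpoint within 1 kb.
Hoxa10, downstream start: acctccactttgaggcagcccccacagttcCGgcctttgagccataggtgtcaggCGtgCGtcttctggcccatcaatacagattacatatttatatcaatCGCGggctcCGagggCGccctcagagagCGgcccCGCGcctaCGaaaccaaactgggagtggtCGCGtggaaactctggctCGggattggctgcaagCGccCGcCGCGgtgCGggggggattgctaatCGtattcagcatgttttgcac
Hoxa10, outer start: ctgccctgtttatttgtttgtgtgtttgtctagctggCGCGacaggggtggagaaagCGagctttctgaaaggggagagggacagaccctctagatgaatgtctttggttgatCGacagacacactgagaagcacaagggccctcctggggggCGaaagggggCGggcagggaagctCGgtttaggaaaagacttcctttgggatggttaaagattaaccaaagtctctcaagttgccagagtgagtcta
Neither Hoxd4 (chr2:74721728-74721977, plus) nor Hoxd13 (chr2:74667975-74668224, plus) had a base of this stretch in a peak, with 3 CG in Hoxd4 and 31 in Hoxd13. A high CG number was thus found without a peak as well as with one.
Hoxd4: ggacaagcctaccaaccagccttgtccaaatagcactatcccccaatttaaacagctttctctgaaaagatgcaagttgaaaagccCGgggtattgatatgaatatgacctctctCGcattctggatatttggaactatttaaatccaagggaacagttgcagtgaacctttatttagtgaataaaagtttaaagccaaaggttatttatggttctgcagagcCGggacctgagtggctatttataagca
Hoxd13: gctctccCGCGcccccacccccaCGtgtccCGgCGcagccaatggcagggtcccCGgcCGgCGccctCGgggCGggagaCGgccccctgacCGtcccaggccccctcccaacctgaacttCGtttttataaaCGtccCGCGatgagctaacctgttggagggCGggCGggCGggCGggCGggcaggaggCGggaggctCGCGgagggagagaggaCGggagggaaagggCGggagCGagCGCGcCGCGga

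A peak midpoint lay in one of the clusters for 43 of the 76546 peaks. Their density was 8.74 peaks per 100 kb over 491.815 kb, and peaks covered 5.96% of that length. HoxA carried 12 peaks over 105.291 kb (11.4 per 100 kb), HoxC 11 over 115.75 kb (9.50), HoxD 8 over 96.833 kb (8.26) and HoxB 12 over 173.941 kb (6.90). The chromosomes that hold them had 3.16, 3.37, 2.90 and 2.80 peaks per 100 kb in the same order. Of 26605 bins of 100 kb across the genome, 9.74% were at least as dense as HoxB, the least dense cluster, and 1.26% were at least as dense as HoxA. Bins at the density of HoxB were therefore not rare, with a median bin of 2 peaks and a 95th percentile of 8. HoxB is longer than a bin, and stretches of its own length were not counted.

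The density was not shared evenly by the surroundings. Beyond the group 13 end, the 100 kb flank had 5 peaks at HoxA and 7 at HoxD but 0 at HoxB and HoxC. Beyond the group 1 end it had 0 at HoxA and HoxD, 1 at HoxB and 3 at HoxC. The HoxA and HoxD flanks hold Evx1 and Evx2, homeobox genes next to the group 13 genes, whose start-site peaks scored 53.64 and 50.19.

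**Figure D1:**
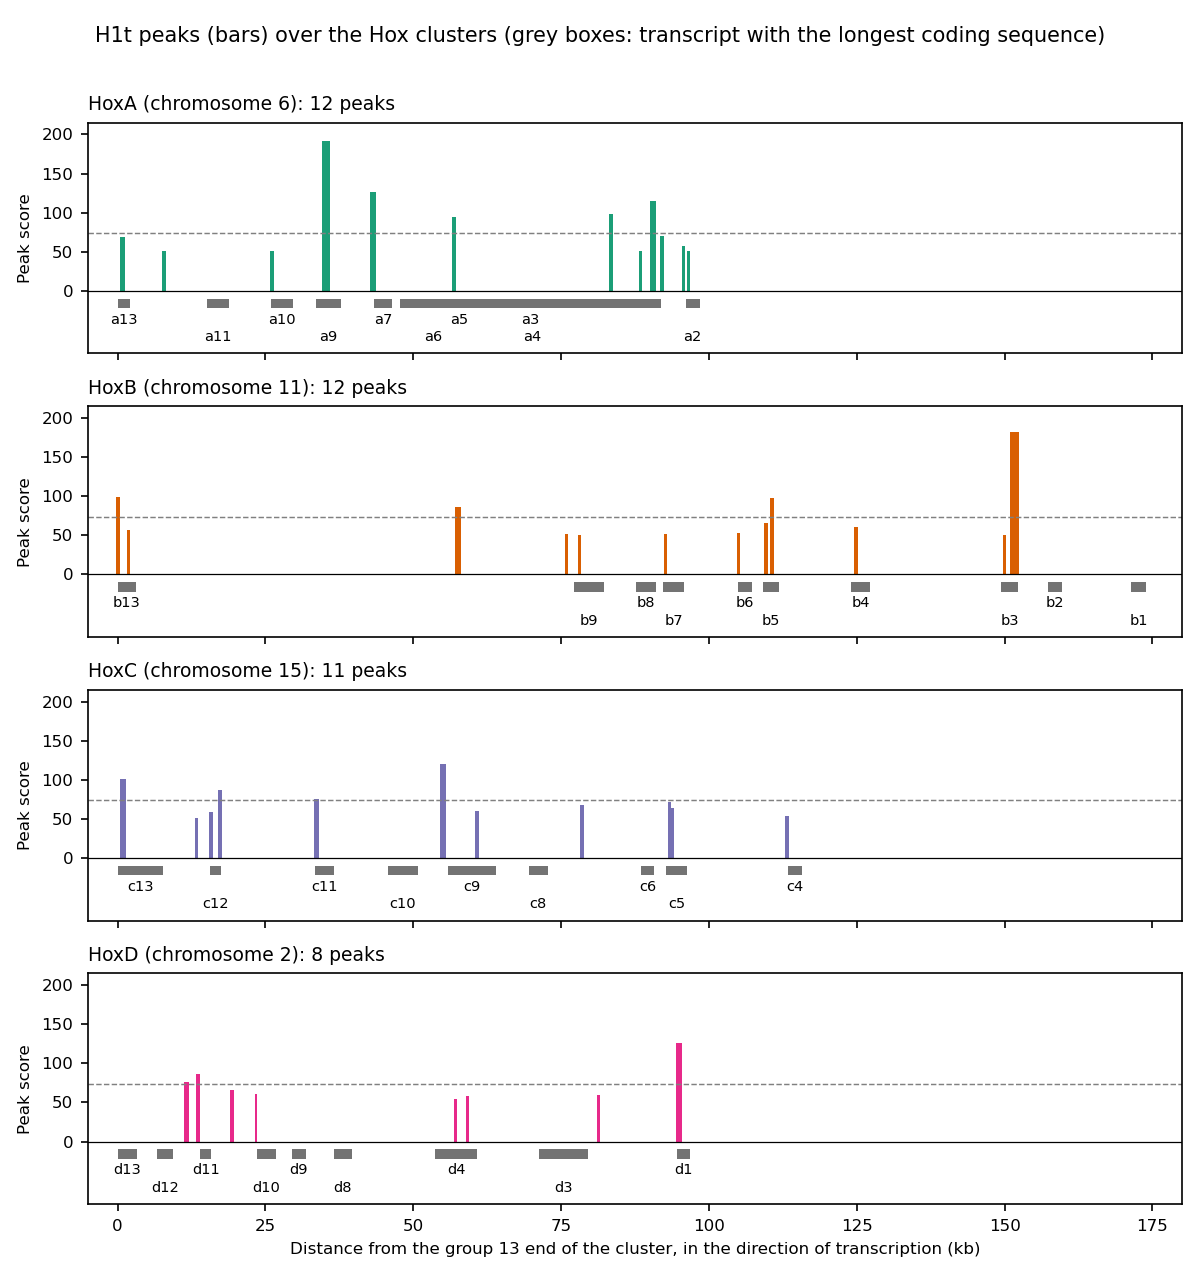
Each bar is an H1t peak, drawn to its width (horizontal axis, kb from the group 13 end in the direction of transcription) and to the authors' score (vertical axis, no unit); grey boxes are the transcripts with the longest coding sequence, with that of Hoxa3 running over Hoxa4, Hoxa5 and Hoxa6, and the dashed line is the median score of all peaks, 74.04. The highest bars stand at Hoxa9 (191.89) and Hoxb3 (181.83), and a stretch of 54.96 kb after Hoxb13 holds no peak; 1 of the 39 genes is not drawn.

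The score is the authors' value for each peak and served only to rank peaks within this list. Cluster peaks scored 50.57 to 191.89 with a median of 65.87, and 16 of 43 lay above the median of all peaks, 74.04. They were also narrower, with a median width of 608 bp against 700 bp, and 2 of them exceeded the 90th percentile score of 165.96. The peaks were thus numerous rather than high.

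The highest one, at chr6:52224952-52226391 (score 191.89, 1440 bp), covered the first coding exon of Hoxa9, a posterior gene also known from leukaemia. The next, at chr11:96345306-96346714 (181.83, 1409 bp), covered the second coding exon of Hoxb3, which acts in hindbrain patterning. A peak over the start of the coding sequence of Hoxa7 scored 126.86 and one over Hoxd1 125.79. The fifth in rank had its midpoint 295 bp before the start of Hoxc9 (120.73). These 5 peaks came from all 4 clusters.

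By midpoint, on the transcripts with the longest coding sequence, 21 of the 43 peaks lay in a coding exon, 6 in the 1 kb upstream of a start, 5 in an intron, 2 in a 5′ UTR and 2 in a part of a gene that other transcripts alone cover. The other 7 lay in a spacer outside these 1 kb stretches. The same division was not made for the peaks of the whole list, so these shares have no background. Median scores were 65.87 in coding exons, 73.61 upstream and 58.95 in spacers, and the score ranges of these 3 places overlapped. Above the median of all peaks were 8 of 21 coding, 3 of 6 upstream and 1 of 7 spacer peaks.

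**Figure D2:**
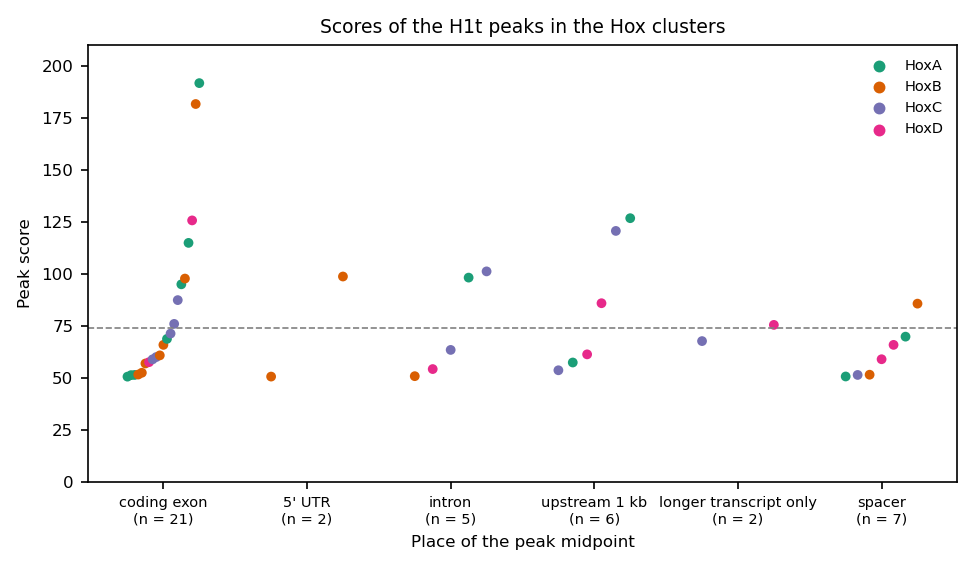
Each point is 1 of the 43 cluster peaks, by place of its midpoint (horizontal axis) and authors' score (vertical axis, no unit), coloured by cluster, with the median score of all peaks (74.04) dashed; points are spread sideways in order of score. Coding exons hold the widest range, 50.57 to 191.89, and the highest spacer peak reaches 85.72.

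A start-site peak, with its midpoint within 1 kb of the outermost annotated start, was found for 14 of 39 Hox genes (35.9%), against 23.0% of all coding genes. HoxB and HoxC had 4 such genes each, and HoxA and HoxD had 3 each. The midpoint lay downstream of the start in 12 of the 15 peaks and upstream in 3. This split was not counted over all coding genes, so it is not read as a trait of Hox genes. Starts of Hox genes are annotated far apart for some genes, and the count moved with them: with the start of the transcript that has the longest coding sequence it was 20 of 39 (51.3%, against 23.4% of all coding genes). With any start of a coding transcript it was 23 of 39, against 26.9%. Among peaks above the median score it was 7 of 39, against 10.4% of all coding genes, and in a window of 500 bp it was 9 of 39, against 18.2%.

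The posterior genes, groups 9 to 13, had a start-site peak in 8 of 16, the central groups 4 to 8 in 4 of 15 and the anterior groups 1 to 3 in 2 of 8. With the start of the transcript that has the longest coding sequence the counts were 9 of 16, 8 of 15 and 3 of 8, so the distance between posterior and central genes held for the outermost start alone. The genes that follow are given by the outermost start. Group 13, whose members pattern digits, tail and genital tract, had one in 3 of 4: Hoxa13 (score 68.74, midpoint 846 bp downstream of the start), Hoxb13 (98.78, 97 bp downstream) and Hoxc13 (101.25, 867 bp downstream). Hoxd13 had no peak anywhere in its body. In group 12 only Hoxc12 of 2 genes had one (58.91), and in group 11 Hoxc11 (75.97) and Hoxd11 (75.49) but not Hoxa11, which acts in kidney, limb and uterus.

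Groups 10 and 9 had 1 each, both with the midpoint upstream: Hoxd10 (61.30, 179 bp before the start) and Hoxc9 (120.73). Group 8 had 0 of 3, and its members Hoxb8, Hoxc8 and Hoxd8 carried no peak over any base of their bodies. Among the central genes Hoxb7 (51.58), Hoxa5 (95.02), Hoxb5 (65.87) and Hoxb4 (60.81) had a start-site peak. The anterior genes with one were Hoxa2, a gene of the second branchial arch with 2 peaks (57.38 and 50.57) on the 2 sides of its start, and Hoxd1 (125.79).

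A peak overlapped the body of 26 of 39 genes (66.7%), against 48.6% of all coding genes and 40.6% of coding genes with lengths in the range of the Hox genes. That range was 1853 to 49987 bp with a Hox median of 3.488 kb, and lengths were not matched within it. Each cluster had 7 overlapped Hox genes except HoxD, which had 5. Some annotated genes span their neighbours: the longest transcripts of Hoxa3, Hoxc5 and Hoxd3 run over other Hox genes, so 1 peak can count for several. Counted on the transcript with the longest coding sequence alone, 23 genes were overlapped, and among peaks above the median score 14 were, against 28.6% of all coding genes. No peak base lay in the other 13 genes, among them Hoxa11, Hoxa6, Hoxa4, Hoxb8, Hoxb2, Hoxb1, Hoxc10, Hoxc8, Hoxd13, Hoxd12, Hoxd9 and Hoxd8.

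Peaks covered coding bases of 20 of 39 genes, against 28.9% of all coding genes. Of the 43 peaks 26 overlapped Hox coding sequence, a share that was not counted over the whole list of peaks. In each of the 20 genes (51.3%) the first coding exon was touched, whereas the first coding exon was touched in 17.2% of all coding genes with several coding exons. Hox first coding exons are long, 376 to 976 bp with a median of 562 bp against 108 bp genome-wide, and rich in G and C. Among first coding exons in the length range of the Hox genes 30.5% were touched, and among those in their range of both length and GC content 39.5%. The distance between the Hox share and the background thus shrank with each of these matches.

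**Figure D3:**
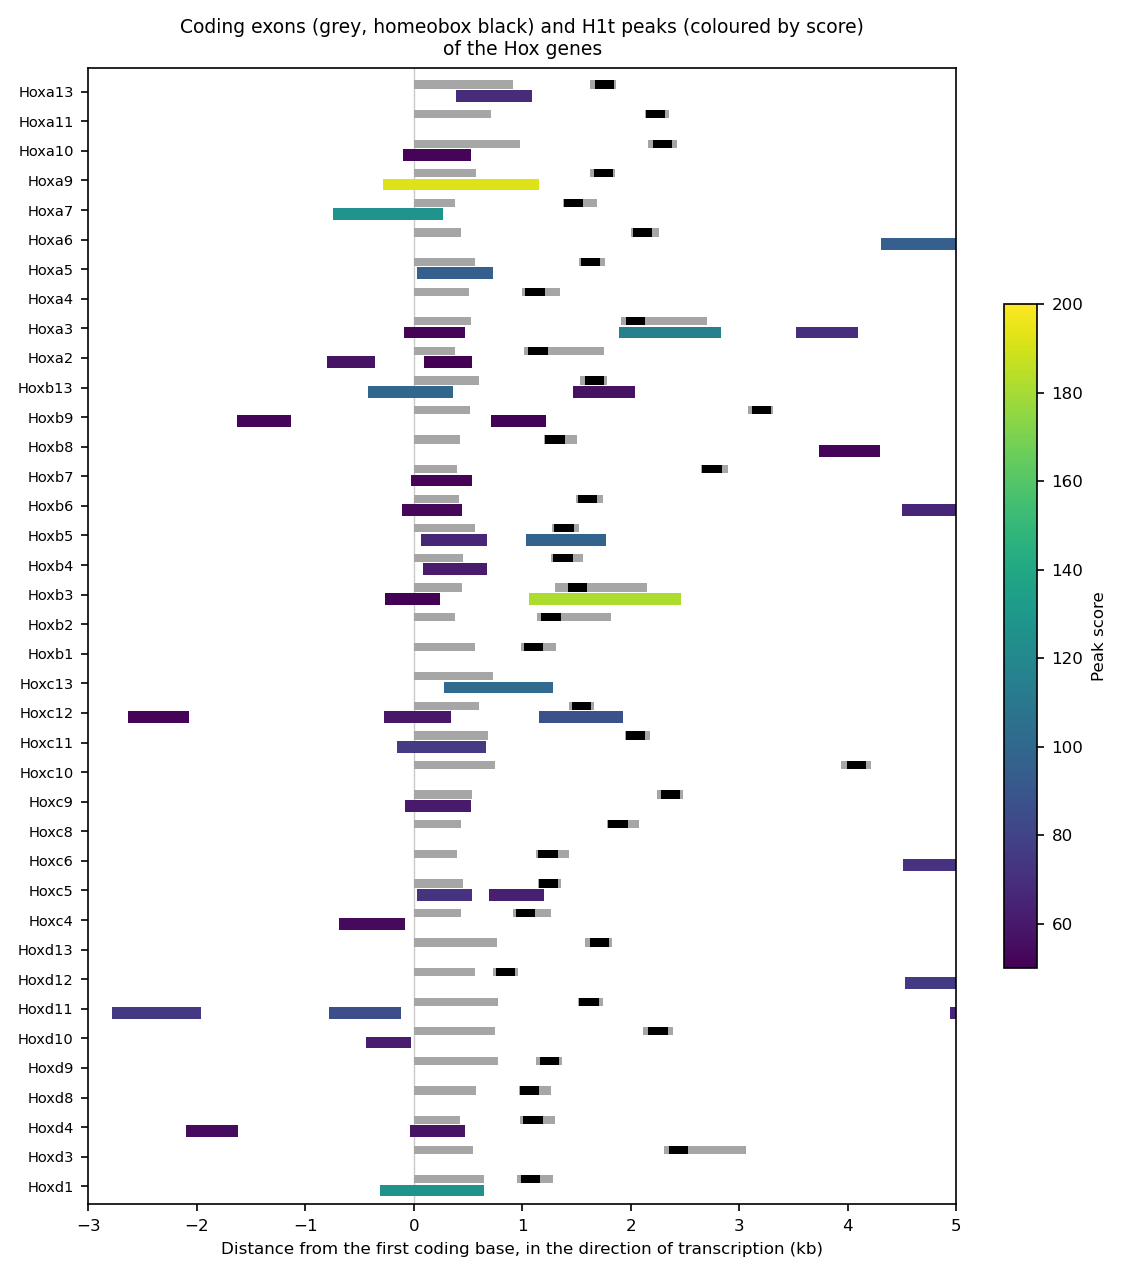
Each row is a Hox gene (1 of the 39 is not drawn), with its coding exons (grey), homeobox (black) and H1t peaks (coloured by the authors' score) against distance from the first coding base in the direction of transcription (kb). Peaks touch the first coding exon in 20 rows and the homeobox in 6.

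Peaks took 40.3% of the 22.257 kb of Hox first coding exon, 18.7% of the last coding exons and 13.5% of the 7.02 kb of homeobox. Over all coding genes with several coding exons they took 18.4% of the first and 9.65% of the last. Wherever a Hox first coding exon was touched, at least 53.6% of it was inside a peak, and those of Hoxa9, Hoxb7, Hoxb6 and Hoxd4 were wholly inside. First coding exons of Hoxa10, Hoxa9, Hoxa7, Hoxa3, Hoxb6, Hoxb3, Hoxc5 and Hoxd4 were touched although their outermost start had no peak within 1 kb. The reverse was seen for Hoxd11 and Hoxd10, with a start-site peak but no coding base inside one.

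The homeobox itself was touched in 6 of 39 genes (15.4%), against 7.43% for the last coding exon of all genes with several. That background takes whole exons and was not matched for length or GC content, whereas the homeobox is part of an exon. The homeobox was wholly inside a peak in Hoxa3, Hoxb3, Hoxb5, Hoxb13 and Hoxc12, and 46 of its 180 bp were in Hoxc5. All 6 genes also had a touched first coding exon, through another peak in each. The peaks over Hoxa3 (114.97), Hoxb3 (181.83), Hoxb5 (97.79) and Hoxc12 (87.42) scored above the median of all peaks, and those over Hoxc5 (63.44) and Hoxb13 (56.91) below it. How reads matching several positions were treated is not given in the sources used here, and its part in peaks over the homeobox, which is alike in sequence between paralogs, was not tested. Coding sequence was covered most completely in Hoxa3 (96.1%), Hoxb5 (92.1%) and Hoxb3 (84.0%).

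GC content moved with these peaks. Of Hox coding bases, 11.404 kb (32.3%) lay inside peaks and had 66.0% GC and 8.69 CG per 100 bases, against 60.05% and 7.26 outside. Over all coding genes the coding bases inside peaks had 62.5% GC and 5.81 CG, against 50.8% and 2.66 outside. Hox coding sequence outside peaks was thus richer in CG than coding sequence inside peaks genome-wide. Touched first coding exons had 61.4% to 74.5% GC (median 65.6%), and the others 52.2% to 77.5% (median 61.0%), so that the groups overlapped.

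Below the lowest GC content of a touched exon (61.4%), 0 of 10 Hox first coding exons were touched, among them those of Hoxa6, Hoxb2, Hoxb1, Hoxc10, Hoxc8, Hoxc6, Hoxc4, Hoxd10 and Hoxd3. At or above it 20 of 29 (69.0%) were. That limit was set by the Hox exons themselves, so this division is a description. Among first coding exons of all genes in the Hox range of both length and GC content, the shares were 20.7% below the limit and 51.8% at or above it. The 9 exons above the limit that were not touched belonged to Hoxa11, Hoxa4, Hoxb9, Hoxb8, Hoxd13, Hoxd12, Hoxd11, Hoxd9 and Hoxd8, and 5 of these are HoxD genes. In HoxD 2 of 9 first coding exons were touched, those of Hoxd4 and Hoxd1. Homeoboxes had lower GC content, with a median of 52.2% (42.2% to 61.7%), and the 6 touched ones had a median of 55.0% against 51.1% in the others. The part of GC content in the Hox counts was not tested beyond this matching.

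**Figure D4:**
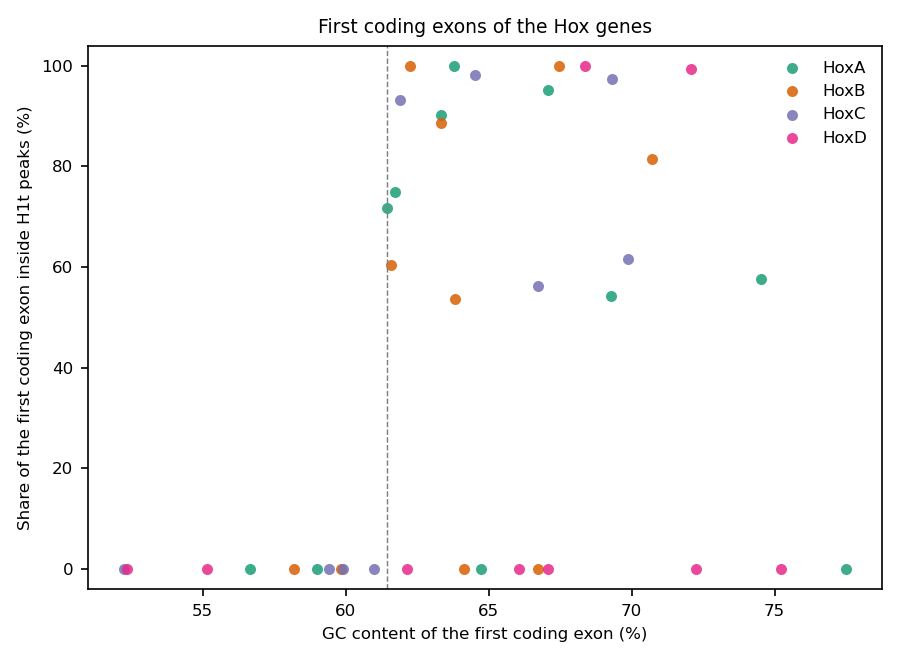
Each point is the first coding exon of 1 Hox gene, by its GC content (horizontal axis, %) and the share of its bases inside H1t peaks (vertical axis, %), coloured by cluster; the dashed line marks the lowest GC content of a touched exon, 61.4%. Left of the line all 10 exons are at 0, and right of it 20 of 29 lie between 53.6% and 100% and 9 at 0.

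RefSeq promoter windows of 300 bases, 250 before and 50 after a start site, were matched to 22 of the 39 genes, 24 windows in all. From HoxB these were only Hoxb1, Hoxb4 and Hoxb8, and from HoxC only Hoxc4, so the windows stand mostly for HoxA and HoxD. A peak midpoint lay within 1 kb of the start in 11 windows, against 23.8% of all coding windows, and a peak touched the window itself in 6 of 24 (against 18.7%). Windows with a start-site peak had a median GC content of 60.3% and 21 CG, and those without 54.3% and 13 CG. The same medians over all coding windows were 64.7% and 24 CG with a peak and 54.3% and 9 CG without. Searched on both strands were 2 motifs, which cannot overlap each other. GGGCGG, the core letters of a GC box, was in 10 of 24 Hox windows (47.8% of all coding windows). TAATTA, letters that many homeodomains bind, was in 2 of 24, both of them windows of Hoxd11 (4.48% of all coding windows).

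The 27 spacers between gene bodies took 206.916 kb, 42.1% of the cluster length, and held 9 of the 43 peak midpoints (20.9%). Their density was 4.35 peaks per 100 kb, against 11.9 in gene bodies. A peak was found in 6 of the 27 (22.2%), against 25.6% of 14958 spacers between coding genes genome-wide with lengths in the same range (0.107 to 74.009 kb), whose density was 2.78 per 100 kb. Those spacers took 271593.108 kb and were longer on average than the Hox spacers. Lengths were not matched within the range, so the 2 shares are not ranked. The distance between Hox spacers and bodies came from HoxB, with 1.77 peaks per 100 kb in spacers and 16.4 in bodies, and HoxC, with 2.91 and 12.3. In HoxA the values were 12.5 in spacers and 11.1 in bodies, and in HoxD 8.40 and 8.18, with 3 spacer peaks in each cluster. Among these are the peaks 391 bp before the start of Hoxa2 and 179 bp before that of Hoxd10. By place of the midpoint both were counted above as upstream and not as spacer peaks, so spacers and bodies of HoxA and HoxD are not ranked. The count depends on which transcripts set the gene ends: 15 midpoints were outside genes with the transcripts of longest coding sequence, and 19 with coding spans. Of the 9, 1 scored above the median of all peaks.

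The spacer of 74.009 kb between Hoxb13 and Hoxb9 held 2 peaks, the higher scoring 85.72, and the 54.96 kb that lead from the end of Hoxb13 into it had no peak. The spacer between Hoxd11 and Hoxd10 held 2 in 4.907 kb (best 65.87) and that between Hoxa3 and Hoxa2 held 2 in 4.23 kb (best 69.83). Those between Hoxa13 and Hoxa11 (50.65), Hoxc13 and Hoxc12 (51.39) and Hoxd3 and Hoxd1 (58.95) held 1 each. Long stretches without a peak also took in genes: 33.232 kb in HoxD held the coding sequence of Hoxd10, Hoxd9 and Hoxd8, and 21.542 kb in HoxB that of Hoxb2 and Hoxb1. In HoxA 25.877 kb took in Hoxa4, and in HoxC 20.417 kb took in Hoxc10.

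Of 36 annotated non-coding genes in the clusters other than microRNA genes, 7 were overlapped by a peak, against 12.9% of 23514 genes of the same types genome-wide. None of the 7 was among the 16 misc_RNA genes; without these the count was 7 of 20, against 13.1%, and the 20 were longer, with a median of 5.31 kb against 1.499 kb genome-wide. The overlapped genes were Hoxaas2 (best score 69.83), Hoxaas3 (98.25), Gm53 (85.72), Hoxb5os (97.79), Hoxb3os (181.83), Gm28309 (65.87) and Haglr (125.79). Several of these run antisense across Hox coding exons and share their peaks. Hotair and Hotairm1, non-coding RNAs known for their parts in regulating Hox genes, had none.

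Of the 7 microRNA genes in the clusters 1 was overlapped by a peak, against 7.08% of all 2202 microRNA genes. It was Mir615, in an intron of Hoxc5, under the peak at chr15:103014772-103015281 (63.44) that also reached the Hoxc5 homeobox. The mature forms are shown from RefSeq (GRCm38.p6) with the seed, bases 2 to 8, in capitals, to set the one inside a peak beside the Hox-targeting families miR-10 and miR-196, each with 1 shared seed.
miR-615-5p: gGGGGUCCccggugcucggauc
miR-615-3p: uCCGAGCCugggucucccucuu
miR-10a-5p: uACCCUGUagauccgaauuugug
miR-10b-5p: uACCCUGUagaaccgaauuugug
miR-196a-5p: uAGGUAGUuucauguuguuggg
miR-196b-5p: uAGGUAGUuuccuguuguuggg
The miR-615 forms had 77.3% and 63.6% GC, and the 4 others 40.9% to 45.5%. The nearest peak was 414 bp from Mir10b, 1580 bp from Mir10a, 3690 bp from Mir196b, 4649 bp from Mir196a-1 and 2178 bp from Mir196a-2.

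Other transcription factor genes of development had larger shares than the Hox genes at the outermost start and over the body. At the first coding exon their shares lay on both sides of that of the Hox genes. Median gene lengths were 6.669 kb for the other homeobox genes, 5.537 kb for forkhead and Sox genes and 3.488 kb for Hox genes. Shares over the body were not matched for length. The other homeobox genes are 105 genes outside the clusters listed by family name, Pax among the families. Whether each holds a homeobox was not checked. Of the 105, 55.2% had a start-site peak and 83.8% a peak over the body, and 58 (55.2%) a touched first coding exon. Tlx3 (232.89) and Gbx2 (173.48) were the highest at the start. Among 63 forkhead and Sox genes, transcription factors of organ formation and cell fate, 44.4% had a start-site peak and 77.8% a peak over the body, led by Foxf1 (245.59), Foxd1 (221.32) and Sox14 (201.48). Of the 39 of them with several coding exons 17 (43.6%) had a touched first coding exon, below the Hox share of 51.3%. With the start of the transcript that has the longest coding sequence, 58.1% of the other homeobox genes and 46.0% of the forkhead and Sox genes had a start-site peak, on either side of the Hox share. The best start-site scores had a median of 72.1 for Hox genes, 80.3 for the other homeobox genes and 70.6 for all coding genes. A high share of genes with peaks was therefore not particular to the Hox clusters in these counts.

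At the start, the shares of the partners and regulators of Hox genes were not above the 23.0% of all coding genes. Of 9 TALE genes, whose proteins bind DNA together with Hox proteins, Meis1 (66.79) was the 1 with a start-site peak (11.1%). A peak lay over the body of 8 (88.9%), against 48.6% of all coding genes. Median lengths were 139.169 kb and 17.425 kb, and these body shares were not matched for length. Of 23 Polycomb and trithorax genes, which keep Hox genes off or on, 5 (21.7%) had one, among them Cbx8 (86.51) and Kmt2a (70.52). Of the 16 coding genes flanking the clusters, 2 on each side of each, 3 (18.8%) had one: Hnrnpa3 (58.59), Evx1 and Evx2, the last 2 of which also count among the 105 homeobox genes.

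**Figure D5:**
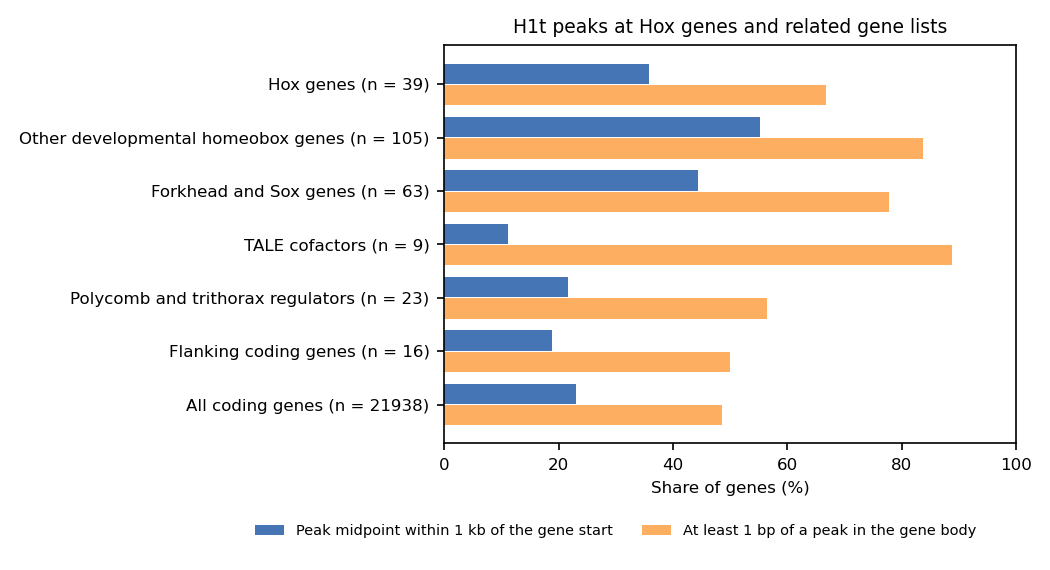
Bars give the share of genes (horizontal axis, %) with a peak midpoint within 1 kb of the gene start (blue) and with at least 1 bp of a peak in the gene body (orange), for the Hox genes, 5 other gene lists and all coding genes. Hox genes reach 35.9% and 66.7%, other developmental homeobox genes 55.2% and 83.8%, and all coding genes 23.0% and 48.6%.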

How the data were processed

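Each line of the deposited table for the H1t library places 1 peak on a chromosome and carries a name and the authors' score. Peak names look like those of MACS; which caller and threshold were used, and how the input entered, is not given in the sources used here. Bowtie 1.1.2 and mm10 are named in the submitters' processing notes. Read depth is unknown, so values have no counting interval. Starts were read as counted from 0, as in BED files, and are printed counted from 1.

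The 76434 peaks of chromosomes 1 to 19, X and Y were set against GENCODE M21. A gene start is its outermost annotated 5′ end, a spacer the sequence between neighbouring Hox gene bodies, and a peak overlapped a feature with at least 1 bp. Coding exons come from the transcript with the longest coding sequence, with annotated gaps of at most 10 bp closed. The homeobox was found from the homeodomain's recognition helix motif. RefSeq tables gave promoters and microRNAs, and 17 Hox genes without a promoter entry are not among the windows. Counts over all genes of the same kind serve as background.

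All 39 members could be named, with full values for those with a start-site peak or one of the 10 highest scores over the body, and for each other list up to 3 members with the highest start-site score. Some genes and sequences that this rule takes are not reported here. The sequences shown were chosen after their values were seen. The members and lists were chosen with earlier results of these data known. The counting was first tested on data with known answers. Software was Python 3.11.15 with numpy 2.4.6, pandas 2.3.3 and matplotlib 3.10.9.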

Additional observations from a re-analysis of the deposited data

How the results depend on the processing

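With 1 library the spread between animals is unknown, and no setting stands for it. Among peaks above the median score of all peaks, 7 Hox genes had a start-site peak, 14 were overlapped, 16 peaks lay in the clusters, 1 in a spacer and 11 over coding sequence, against 14, 26, 43, 9 and 26 with all peaks. A window of 500 bp left 9 genes with a start-site peak, and any start of a coding transcript gave 23. Spacer peaks numbered 19 with coding spans as genes and 15 with the transcripts of longest coding sequence. Alternatives with these transcripts were added after the data were seen; with them 20 genes had a start-site peak, 9 of 16 posterior, 8 of 15 central (against 4) and 3 of 8 anterior (against 2), and 23 were overlapped. The remaining alternatives, a 2 kb window, an overlap of 1 bp, midpoints and added flanks among them, moved each count by less than 1.5 times. No paired analysis was possible because 1 library was analysed. How the peak caller's threshold, the input or reads with several matching positions would change these counts was not tested.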
